A study of Mus musculus with 8 samples.

Results

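The beta 2 integrins of leukocytes and 3 genes of the ICAM and VCAM adhesion ligands were followed across 8 RNA-seq libraries of mouse bone-marrow-derived macrophages. The set holds 7 genes, Itgal, Itgam, Itgax, Itgb2, Icam1, Icam2 and Vcam1, taken by symbol from the 34745 genes of the count table. Bone-marrow-derived macrophages are primary cells, grown here in recombinant mouse M-CSF, the macrophage growth factor, at 20 ng/ml. The 4 groups of 2 libraries were KAT8-deficient cells given R848 at 100 ng/ml for 6 h, untreated KAT8-deficient cells, wild-type (WT) cells given the same R848 treatment, and untreated WT cells. KAT8 is a histone H4 lysine acetyltransferase, and R848 is a small-molecule agonist of the endosomal receptor TLR7. The sample titles call the mutant KAT8-cKO, and the labels name no Cre driver, deleted exon, strain, age or number of animals. They also do not say whether replicates are different mice or cultures, so p-values measure only the spread between these libraries, which may be technical.

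Beta 2 integrins are surface receptors made of 1 shared beta chain, CD18, encoded by Itgb2, and 1 of several alpha chains. Itgal encodes the alpha chain of LFA-1 (CD11a), Itgam that of Mac-1 or complement receptor 3 (CD11b), Itgax that of p150,95 or complement receptor 4 (CD11c) and Itgad a further chain, CD11d. LFA-1 binds the adhesion molecules ICAM-1 and ICAM-2, while Mac-1 binds ICAM-1 and the complement fragment iC3b. VCAM-1 is an adhesion molecule of the same immunoglobulin superfamily and is best known as a ligand of the integrin VLA-4 (Itga4 with Itgb1), which is no beta 2 integrin. In macrophages these receptors serve adhesion, migration and the uptake of opsonised particles, and Icam1 and Vcam1 are known targets of NF-kB.

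Library totals ran from 18550977 to 21384532 counts, and 14040 genes with enough counts were tested, among them all 7 members. Kat8 itself stood at 9.94 and 10.4 CPM (TMM-normalised) in KAT8-deficient cells under R848 and at 8.76 and 10.8 CPM without it, against 18.0 and 16.0 CPM in WT cells under R848 and 16.96 and 17.9 CPM in untreated WT cells. Kat8 was thus lower, not absent, in the libraries labelled KAT8-deficient. Its log2 difference from WT was -0.83 without R848 (SE 0.13, adjusted p = 0.0113 by edgeR) and -0.74 with it (SE 0.12, adjusted p = 0.00553 by edgeR). The 10 macrophage markers summed to 8769 to 9157 CPM in KAT8-deficient cells under R848 and 9005 to 9697 CPM in untreated KAT8-deficient cells, against 15377 to 16581 CPM in WT cells under R848 and 15390.0 to 15718 CPM in untreated WT cells. Without the lysozyme gene Lyz2, a split made after the values were seen, the sum lay between 3567 and 3822 CPM in KAT8-deficient cells under R848 and between 3665 and 3754 CPM in untreated KAT8-deficient cells, against 4349 to 4442 CPM in WT cells under R848 and 3915 to 3968 CPM in untreated WT cells. Of 9 macrophage markers tested, only Lyz2 was called between untreated genotypes, lower in KAT8-deficient cells, where 1.36% of all genes tested were lower. Under R848, 5 were lower and 1, Fcgr1, was higher (log2 1.09, edgeR adjusted p = 0.00148), against 5.47% and 8.14% of all genes. The summed level of 10 fibroblast and stromal markers was higher in KAT8-deficient libraries, at 3662 to 3769 CPM under R848 and 4068 to 4249 CPM untreated. In WT libraries it was 2463 to 2677 CPM and 2932 to 3433 CPM in the same states. The 10 neutrophil markers summed to 5.05 to 8.59 CPM over all libraries, with Ly6g at 0. Of them S100a8 stood at 4.06 to 6.83 CPM and Cxcr2 at 0.518 to 1.57 CPM, and the other 8 stayed under 1 CPM. The 8 lymphocyte and NK cell markers summed to 1.5 to 2.68 CPM, with Ncr1 at 0. In bulk libraries such as these, fewer cells of a type and less RNA per cell cannot be told apart.

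Promoter sequences are shown for Icam1, Itgam and Itgax. The set of RefSeq promoters (GRCm38.p6) at hand, 250 bases before to 50 after the start, held only these 3 of the 7 members. Promoters of Itgal, Itgb2, Icam2 and Vcam1 were not at hand, which says nothing about their presence in RefSeq. Icam1 gave the largest R848 response of the 7 members, while the R848 responses of the alpha chain genes Itgam and Itgax did not pass the test. In the Icam1 promoter (chr9:21015690-21015989, plus strand), capitals mark from left to right a shorter NF-kB form (GGAANTTCC), a GAS motif (TTCNNNGAA) and a TATA box (TATAAA). In the Itgam promoter (chr7:128062390-128062689, plus strand), capitals mark 3 copies of the purine-rich PU.1 core GAGGAA, 1 on the plus strand and 2 on the minus strand, and the Itgax promoter (chr7:128129300-128129599, plus strand) held none of the motifs searched and so has no capitals.
Icam1: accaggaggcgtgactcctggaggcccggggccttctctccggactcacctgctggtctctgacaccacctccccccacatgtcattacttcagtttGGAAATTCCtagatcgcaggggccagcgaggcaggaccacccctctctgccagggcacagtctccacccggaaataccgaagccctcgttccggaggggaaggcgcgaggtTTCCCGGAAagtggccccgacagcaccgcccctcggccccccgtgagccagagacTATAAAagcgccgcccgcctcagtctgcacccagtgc
Itgam: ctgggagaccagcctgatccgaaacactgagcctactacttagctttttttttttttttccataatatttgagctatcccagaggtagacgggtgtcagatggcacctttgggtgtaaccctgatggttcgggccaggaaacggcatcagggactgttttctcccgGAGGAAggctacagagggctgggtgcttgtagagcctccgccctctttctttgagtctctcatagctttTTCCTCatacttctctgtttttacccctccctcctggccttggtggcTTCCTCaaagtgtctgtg
Itgax: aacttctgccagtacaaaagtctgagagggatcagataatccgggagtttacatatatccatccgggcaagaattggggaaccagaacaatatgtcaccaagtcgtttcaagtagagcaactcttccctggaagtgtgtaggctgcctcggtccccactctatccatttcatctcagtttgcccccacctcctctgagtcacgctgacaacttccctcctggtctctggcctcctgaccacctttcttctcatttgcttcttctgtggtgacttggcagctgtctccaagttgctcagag
Motifs were searched on both strands, and none of those marked overlapped another. The NF-kB consensus of 10 bases was in none of these 3 promoters and in 8.49% of 32544 distinct promoters of this length. The shorter form, chosen after the Icam1 sequence had been seen, began 153 bases before the RefSeq start of Icam1 and was in 0.928% of all promoters. The GAS motif, the letters bound by STAT dimers, began 42 bases before that start and was in 8.33% of promoters. The TATA box began at base 14 after that start and was in 13.6%. GENCODE M21 places the Icam1 start further downstream, at 21015985, and all 3 marked motifs lie before that position. The PU.1 core, read by the myeloid factor PU.1, was in 28.1% of promoters and an interferon response core (GAAA, any 2 bases, GAAA), in none of these 3, was in 3.45%. These matches describe letters, not binding.

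The shared beta chain gene Itgb2 was the most abundant member and differed little between groups. It stood at 1924 and 2094 CPM in KAT8-deficient cells under R848 and at 2067 and 2087 CPM in untreated KAT8-deficient cells, against 2161 and 2062 CPM in WT cells under R848 and 2071 and 2118 CPM in untreated WT cells. The libraries overlapped in each of the 4 comparisons of groups. None of its log2 differences passed the edgeR test, and their 95% intervals lay within -0.25 and 0.15. The interval of the KAT8-deficient minus WT difference ran from -0.15 to 0.12 untreated and from -0.21 to 0.06 under R848.

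Itgam counts could not be read from its own row alone. Itgam spanned 128062640 to 128118491 on the plus strand of chromosome 7 (GENCODE M21, GRCm38). The predicted protein-coding gene model Gm49368 began within it on the same strand, at 128062683, and ended at 128128160. The models shared 3450 exonic bases, 68.7% of those of Itgam and 71.8% of those of Gm49368, so a read from the shared exons can be given to either. The Itgam row held 358 and 497 CPM in KAT8-deficient cells under R848, 497 and 340 CPM in untreated KAT8-deficient cells, 447 and 188 CPM in WT cells under R848, and 553 and 373 CPM in untreated WT cells. In WT cells under R848 the replicates lay further apart than the means of any groups. The Gm49368 row moved the other way, taking from 14.7% of the joint counts in replicate 1 of untreated WT cells to 70.0% in replicate 2 of WT cells under R848.

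Summed, the Itgam and Gm49368 rows gave nearly the same level in all 8 libraries. The sum was 619 and 613 CPM in KAT8-deficient cells under R848, 630.5 and 626 CPM in untreated KAT8-deficient cells, 622 and 627 CPM in WT cells under R848, and 648 and 646 CPM in untreated WT cells. Refitted as 1 row, a choice made after the rows had been seen, the sum had a log2 R848 response of -0.03 (SE 0.049) in KAT8-deficient cells and -0.05 (SE 0.049) in WT cells, with 95% intervals from -0.14 to 0.08 and from -0.16 to 0.06. The KAT8-deficient minus WT difference of the sum was -0.04 (SE 0.049) untreated and -0.02 (SE 0.049) under R848. Although the libraries of the groups did not overlap in these 4 comparisons, none passed (edgeR adjusted p = 0.566 at the lowest and 0.941 at the highest over 5 comparisons). By its own row Itgam had log2 responses of 0.03 (SE 0.37) in KAT8-deficient and -0.54 (SE 0.37) in WT cells, and genotype differences of -0.15 (SE 0.37) untreated and 0.43 (SE 0.37) under R848, none past the test either.

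**Figure D1:**
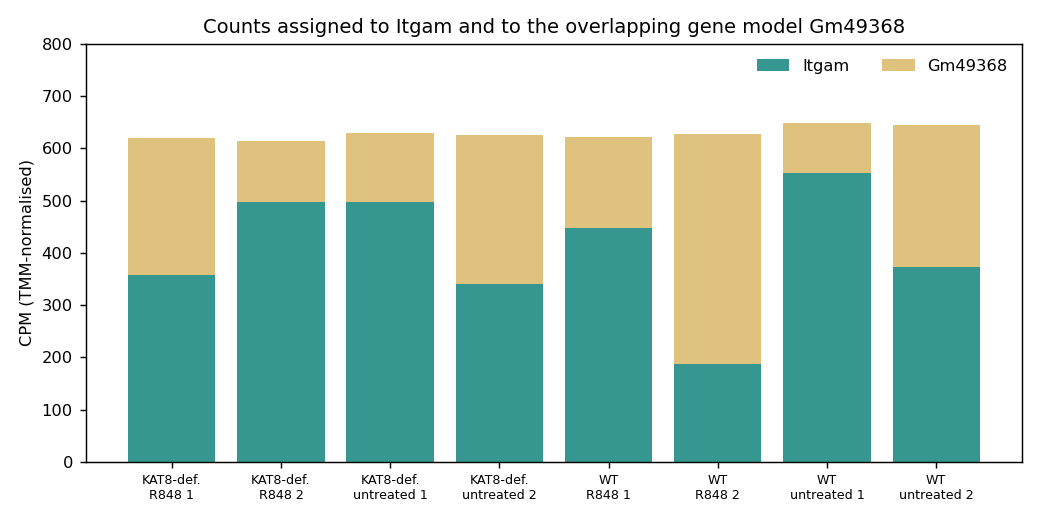
Level in CPM (vertical axis) given to Itgam (green) and to the overlapping gene model Gm49368 (tan) in each of the 8 libraries, replicates numbered 1 and 2. The border between the colours moves from library to library while the top of the bars stays between 613 and 648 CPM.

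Itgax, the CD11c chain used to mark dendritic cells and some macrophages, was expressed at a like level in all groups. Its levels were 477 and 571 CPM in KAT8-deficient cells under R848 and 492 and 538 CPM in untreated KAT8-deficient cells, against 608 and 567 CPM in WT cells under R848 and 590.2 and 579 CPM in untreated WT cells. The untreated KAT8-deficient libraries lay below both untreated WT libraries, but the difference did not pass (log2 -0.18, SE 0.09, edgeR adjusted p = 0.299), and under R848 the groups overlapped (log2 -0.17, SE 0.09, edgeR adjusted p = 0.274). R848 moved it by 0.03 on the log2 scale in KAT8-deficient and by 0.01 in WT cells, with 95% intervals from -0.18 to 0.23 and from -0.20 to 0.21. Of 8 dendritic cell markers, 5 stayed under 1 CPM in every library, among them Flt3 and Siglech with no count. Zbtb46 stood at 7.33 to 9.34 CPM, Batf3 at 1.37 to 2.61 CPM and Ccr7 at 0.367 to 1.02 CPM over all libraries. The 8 had a summed level of 11.4 to 12.7 CPM over all libraries.

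Among the beta 2 integrin alpha chains, only Itgal was called between genotypes. It stood at 72.7 and 92.1 CPM in KAT8-deficient cells under R848, against 239.7 and 244 CPM in WT cells under R848. Without R848 it stood at 73.7 and 77.4 CPM in KAT8-deficient cells, against 154 and 175 CPM in WT cells. All 4 KAT8-deficient libraries thus lay below all 4 WT libraries, with no overlap in either state. Without R848 the log2 difference was -1.12, a fold of 0.46 (SE 0.11, adjusted p = 0.0023 by edgeR). With R848 it was -1.55, a fold of 0.341 (SE 0.11, adjusted p = 0.00025 by edgeR). It kept its call in all 17 alternative fits of each comparison, at -1.22 to -1.02 untreated and -1.73 to -1.39 under R848.

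R848 raised Itgal in WT cells, by 0.56 (SE 0.11, a fold of 1.47, edgeR adjusted p = 0.0102) on the log2 scale, with no overlap between treated and untreated libraries. In KAT8-deficient cells its treated and untreated libraries overlapped and the change of 0.13 (SE 0.11, edgeR adjusted p = 0.655) did not pass. The difference between these responses, -0.43 (SE 0.15, 95% interval -0.78 to -0.08), did not pass over all genes (edgeR adjusted p = 0.323). The WT rise was lost without replicate 1 of WT cells under R848 (adjusted p = 0.058), without replicate 2 of that group (0.0602) or without replicate 1 of untreated WT cells (0.0659).

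Itgal, Itgam and Itgax lie on chromosome 7 with Kat8. Itgal (127296260 to 127335138, GRCm38) ended 577.4 kb before Kat8, while Itgam began 136.8 kb and Itgax (128129547 to 128150657) 203.7 kb after it. In the window from Itgal to Itgad, 41 genes were tested. Between genotypes 7.32% of them were called untreated and 9.76% under R848, against 4.27% and 13.6% of all genes tested. Untreated, the called genes were Itgal, Kat8 and Trim72, which encodes a muscle membrane repair protein (log2 2.29, SE 0.47, edgeR adjusted p = 0.0347). Under R848 they were Itgal, Kat8, the sterol enzyme gene Hsd3b7 (log2 -0.94, SE 0.21, edgeR adjusted p = 0.02) and Gm49388, a predicted gene model that spans Hsd3b7 and was called in the opposite direction, higher in KAT8-deficient cells. Gm49388 held 953 and 1312 counts in KAT8-deficient cells under R848 and 4 and 0 untreated, against 0 and 5 counts in WT cells under R848 and 469 and 0 untreated. Its replicates thus differed widely within untreated WT cells, and since reads of Hsd3b7 may be given to it, both calls are uncertain. Itgal had the smallest adjusted p of the window in both states.

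**Figure D2:**
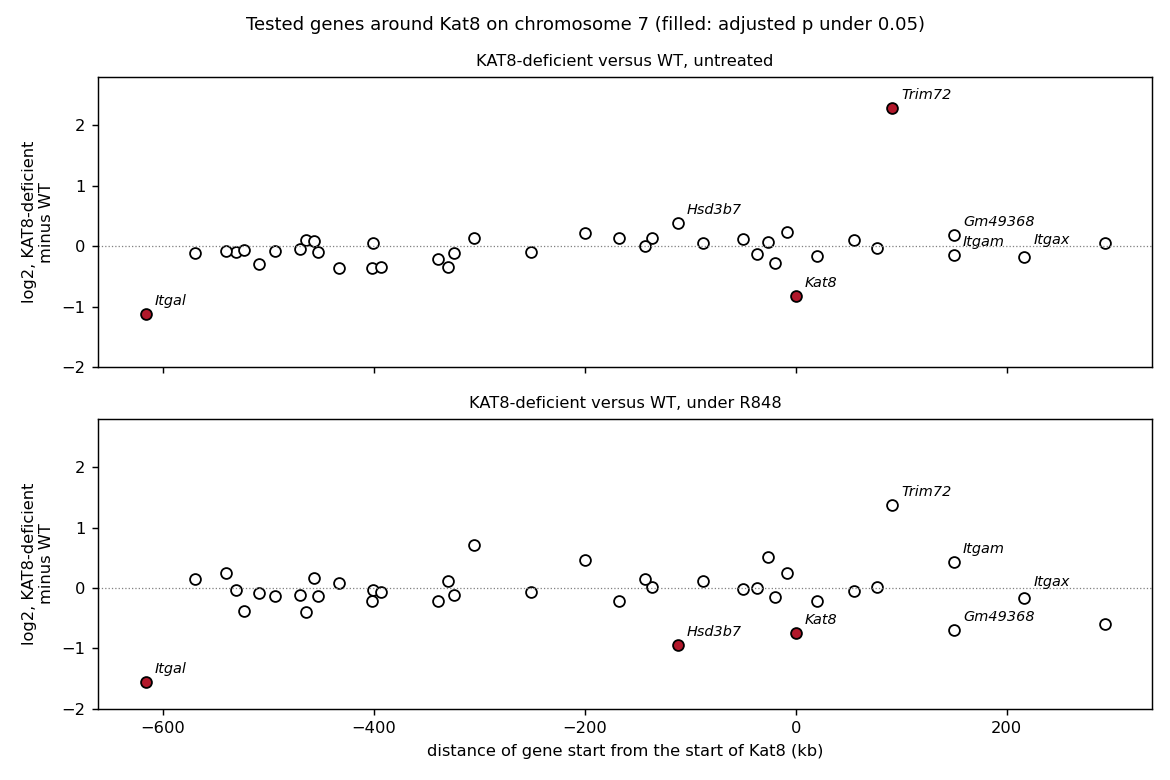
Log2 difference, KAT8-deficient minus WT (vertical axes), untreated (top) and under R848 (bottom), of the genes tested around Kat8 against the distance of their start from that of Kat8 in kb; filled points passed the edgeR test at an adjusted p under 0.05. Itgal, at the left edge, lies at -1.12 and -1.55, while Itgam and Itgax to the right of Kat8 are unfilled. Gm49388 is left out for scale.

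Levels of different genes are compared here per kilobase of annotated exons. On that scale, as CPM per kb averaged over all 8 libraries, Itgb2 stood at 679 ± 22.4, the joint Itgam and Gm49368 signal at 125 ± 2.42, Itgax at 115 ± 9.77 and Itgal at 21.5 ± 11.1 (SD, n = 8 libraries of 4 groups). Itgax and the joint Itgam signal, which uses the length of Itgam, overlapped in range, at 99.4 to 126.7 and 122 to 129. Itgad, the CD11d gene, had no count in 7 libraries and 2 counts in replicate 1 of untreated KAT8-deficient cells. That is under the floor of 3 counts, which is 0.14 to 0.163 CPM at this depth and covers counting error only.

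As a share of the summed alpha chain level per kb, with the joint count for Itgam, Itgal made up 5.12% ± 0.538 in KAT8-deficient cells under R848 and 4.72% ± 0.031 in untreated KAT8-deficient cells, against 13.0% ± 0.391 in WT cells under R848 and 9.09% ± 0.83 in untreated WT cells (SD, n = 2 libraries each). Itgax made up 44.6% and 43.9% in KAT8-deficient cells with and without R848, against 43.2% and 44.2% in WT cells with and without R848. With groups of 2 no permutation test of these shares can reach 0.05, so they are given as a description. With the Itgam row alone, as deposited, the mean shares over the 8 libraries were 9.81% for Itgal, 36.9% for Itgam and 53.3% for Itgax, against 7.98%, 48.1% and 44.0% with the joint count.

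Of the ligand genes, Icam1 gave the largest R848 response of the set. Icam1, on chromosome 9 (21015985 to 21028817, GRCm38), stood at 129 and 186 CPM in KAT8-deficient cells under R848, against 73.1 and 87.5 CPM in untreated KAT8-deficient cells. In WT cells it stood at 460 and 450.3 CPM under R848, against 109 and 114 CPM untreated. Treated and untreated libraries did not overlap in either genotype, and both treated KAT8-deficient libraries lay far below both treated WT libraries.

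R848 raised Icam1 1.96-fold in KAT8-deficient cells (log2 0.97, SE 0.15, edgeR adjusted p = 0.0405) and 4.09-fold in WT cells (log2 2.03, SE 0.16, edgeR adjusted p = 0.000142). Under R848 its level was 0.345 times that of WT in KAT8-deficient cells (log2 -1.53, SE 0.15, edgeR adjusted p = 0.000648), and this call held in all 17 alternative fits. Untreated, KAT8-deficient libraries were also below WT libraries without overlap, but the difference of -0.47 (SE 0.15, edgeR adjusted p = 0.136) did not pass. It did pass by the DESeq2 Wald test (adjusted p = 0.0199), without a filter on low counts (0.0419) and without replicate 1 (0.0293) or replicate 2 (0.0295) of KAT8-deficient cells under R848, and over all its alternatives the adjusted p ran up to 0.48. The difference between the responses was -1.06 (SE 0.22, 95% interval -1.56 to -0.57), which did not pass over all genes (edgeR adjusted p = 0.086).

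The Icam1 rise in KAT8-deficient cells was lost in 7 of 8 fits that each left out 1 library, all but the one without replicate 1 of KAT8-deficient cells under R848. Its log2 value in those 8 fits ran from 0.68 to 1.2 and its adjusted p from 0.00237 to 0.289. The response difference passed by the DESeq2 Wald test (-1.07, adjusted p = 1.06e-05), without a filter on low counts (-1.05, adjusted p = 0.0052) and without replicate 2 of KAT8-deficient cells under R848 (-1.35, adjusted p = 0.00645), and over all its alternatives the adjusted p ran up to 0.268.

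Vcam1 was higher in KAT8-deficient than in WT cells before R848 and lower after it. Vcam1, on chromosome 3 (116109949 to 116129688, GRCm38), stood at 66.6 and 69.3 CPM in untreated KAT8-deficient cells, against 51.1 and 49.0 CPM in untreated WT cells. Under R848 it stood at 98.9 and 122 CPM in KAT8-deficient cells, against 153 and 154 CPM in WT cells. The genotypes did not overlap in either state, and the order of the genotypes was opposite in the 2 states. Without R848 the log2 difference was 0.44, a fold of 1.36 (SE 0.096, adjusted p = 0.0419 by edgeR). With R848 it was -0.47, a fold of 0.721 (SE 0.093, adjusted p = 0.0115 by edgeR).

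R848 raised Vcam1 1.63-fold in KAT8-deficient cells (log2 0.70, SE 0.095, edgeR adjusted p = 0.0286) and 3.07-fold in WT cells (log2 1.62, SE 0.097, edgeR adjusted p = 7.19e-05). The difference between the responses, -0.91 (SE 0.13, 95% interval -1.22 to -0.61), passed the edgeR test (adjusted p = 0.0446) but not limma-voom (-0.92, adjusted p = 0.0545). It was lost without either untreated KAT8-deficient library, either WT library under R848 or either untreated WT library, with adjusted p from 0.107 to 0.155 and log2 values from -0.94 to -0.88. The untreated difference was lost in 6 of the 8 such fits, those without a library of either untreated group or of WT cells under R848 (log2 0.41 to 0.47, adjusted p up to 0.17). The difference under R848 was lost without replicate 1 (adjusted p = 0.0713) or replicate 2 (0.0617) of WT cells under R848, and the rise in KAT8-deficient cells without either untreated KAT8-deficient library or either WT library under R848 (adjusted p up to 0.215).

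Stromal cells of bone marrow also make Vcam1. Over all genes tested, 2.91% were higher in KAT8-deficient cells untreated and 8.14% under R848. Beside its untreated genotype difference, 7 of the 10 fibroblast and stromal markers were higher in untreated KAT8-deficient cells, and 8 were higher under R848, where Vcam1 was lower in KAT8-deficient cells. Among them Dcn, encoding the proteoglycan decorin, differed by 0.72 untreated (edgeR adjusted p = 0.00923) and by 0.84 under R848 (edgeR adjusted p = 0.00124) on the log2 scale. Their part in the Vcam1 values was not tested.

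Icam2, an ICAM made by endothelium and leukocytes without stimulation, was near the low end of the tested genes. It held 37 to 67 counts per library, which was 2.73 and 2.22 CPM in KAT8-deficient cells under R848 and 2.62 and 1.98 CPM in untreated KAT8-deficient cells, against 3.52 and 2.4 CPM in WT cells under R848 and 3.12 and 3.2 CPM in untreated WT cells. None of its differences passed, the largest being -0.46 (SE 0.25, edgeR adjusted p = 0.363) for KAT8-deficient minus WT untreated. Its 95% intervals were wide, for example from -1.03 to 0.12 for that difference, and changes within such intervals were not detectable at this depth. The endothelial markers Tek, Emcn, Tie1, Erg and Robo4 stayed under 1 CPM in every library, while Vwf and Kdr reached 88.9 and 38.1 CPM.

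**Figure D3:**
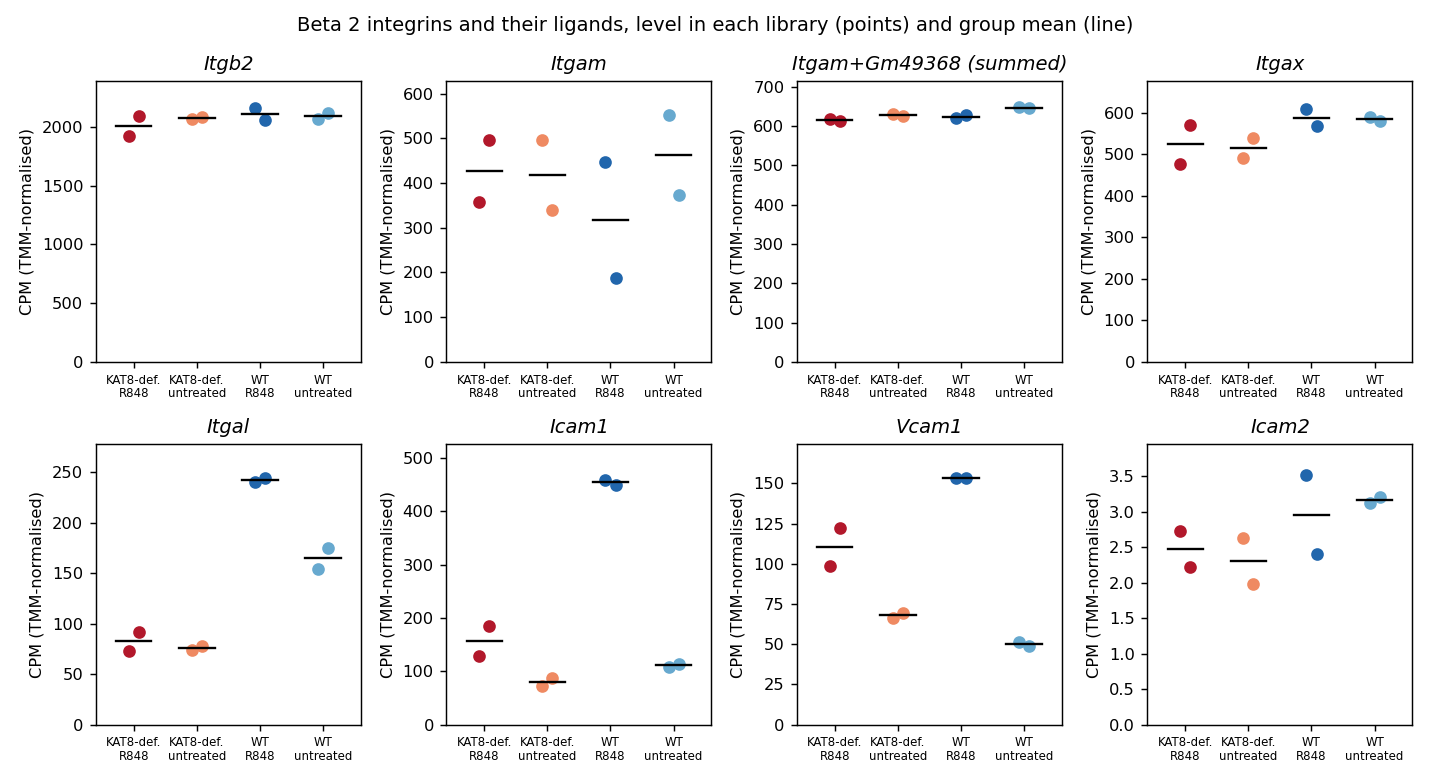
Level in CPM (vertical axes, from 0) of each member and of the joint Itgam and Gm49368 signal in the 4 groups; points are libraries and lines are group means of 2. Itgb2, the joint Itgam signal and Itgax are flat, Itgal is lower in KAT8-deficient libraries, and Icam1 and Vcam1 are highest in WT cells under R848.

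Counted together, 2 of the 7 members rose with R848 in KAT8-deficient cells (Icam1 and Vcam1), where 0.634% of 14040 genes tested were called, 0.499% higher and 0.135% lower. In WT cells 3 rose (Icam1, Vcam1 and Itgal), where 13.6% of genes were called, 6.94% higher and 6.7% lower. Between genotypes 2 members differed untreated, Itgal lower and Vcam1 higher, against 4.27% of all genes called, 2.91% higher and 1.36% lower. Under R848 3 were lower (Itgal, Icam1 and Vcam1), against 13.6% of all genes called, 8.14% higher and 5.47% lower. In the test of the difference between responses Vcam1 alone passed, against 0.228% of all genes, 0.057% higher and 0.171% lower. The median log2 difference of the 7 members was 0.10 for R848 in KAT8-deficient cells, 0.01 for R848 in WT cells, -0.18 between genotypes untreated and -0.25 under R848, while the median of all genes tested lay between -0.0075 and 0.0062. Between untreated genotypes 5 of the 7 members did not overlap, though 2 were called. Groups of 2 libraries can lie apart without a true difference. The share of all genes without overlap is not given, so non-overlap is a description only.

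**Figure D4:**
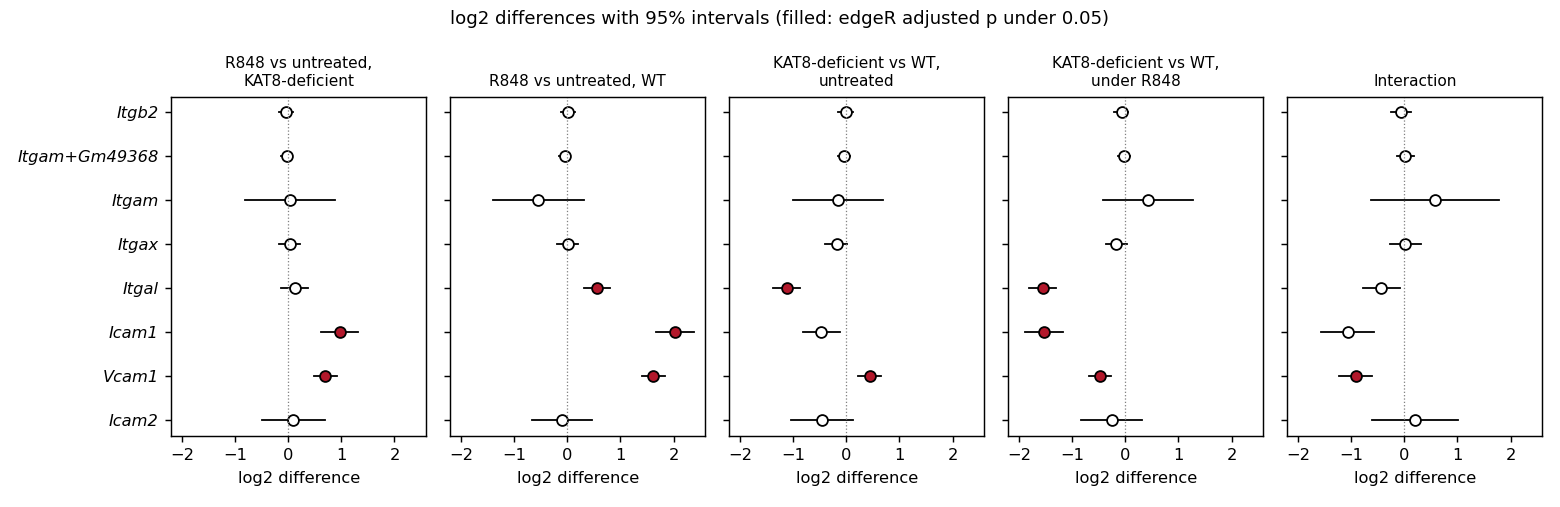
Log2 differences (points) with 95% intervals (lines) of each member and of the joint Itgam and Gm49368 signal in 5 comparisons; the interaction is the KAT8-deficient R848 response minus the WT response, and filled points passed the edgeR test. Itgam and Icam2 have the widest intervals, that of Itgam shrinks once its counts are joined with Gm49368, and Vcam1 changes sign between the genotype comparisons.

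The genes whose pattern over the 8 libraries was most like that of a called member were found by the root mean square difference of centred log2 CPM, which is a description with no test over libraries that share groups. For Itgal they were H2-Aa, H2-Eb1 and H2-Ab1, which encode MHC class II chains, at distances of 0.17, 0.17 and 0.18. H2-Aa had a log2 genotype difference of -1.39 untreated and -1.51 under R848. For Icam1 they were Slc7a11 (the cystine transporter, 0.12), Malt1 (a paracaspase of NF-kB signalling, 0.13) and Mefv (pyrin, 0.14), with log2 R848 responses of 0.71 to 0.82 in KAT8-deficient cells and 1.8 to 2.19 in WT cells. For Vcam1 they were the transcription factor genes Pou2f2 and Ets2 and the RNA-degrading enzyme gene Zc3h12a, each at 0.14. In that order their log2 genotype differences were 0.14, 0.18 and 0.09 untreated, smaller than the 0.44 of Vcam1. Under R848 they were -0.32, -0.71 and -0.51, against -0.47 for Vcam1.

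Other genes of the pathway were read from lists. Over all genes tested, 0.634% were called for R848 in KAT8-deficient cells and 13.6% in WT cells. Between genotypes 4.27% were called untreated and 13.6% under R848, and 0.228% in the test of the difference between responses. Each list count below is to be read against these shares. Of 12 further ligands of beta 2 integrins, 6 were tested. C3, the source of iC3b, rose with R848 in KAT8-deficient cells, to 898 and 857 CPM against 679.5 and 693 CPM untreated (log2 0.35, SE 0.057, edgeR adjusted p = 0.0407). In WT cells it rose to 723 and 727 CPM, against 495 and 527 CPM untreated (log2 0.50, SE 0.057, edgeR adjusted p = 0.000711). C3 was higher in KAT8-deficient cells untreated (log2 0.42) and under R848 (log2 0.27). F11r, encoding the LFA-1 ligand JAM-A, was higher in KAT8-deficient cells as well, by 0.42 untreated (SE 0.065, adjusted p = 0.0116 by edgeR) and 0.43 under R848 (SE 0.064, adjusted p = 0.00323 by edgeR). The median log2 difference of the 6 genes was 0.42 untreated and 0.31 under R848.

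Of 15 genes tested that activate integrins from inside the cell, 2 rose and 1 fell with R848 in WT cells. Under R848, 1 was higher and 1 lower in KAT8-deficient than in WT cells. In each of these comparisons 13.6% of all genes tested were called, so the counts are no result about the list. Cytip, which encodes a partner of the integrin regulator cytohesin-1, stood at 3.2 and 3.83 CPM in WT cells under R848, against 9.46 and 9.78 CPM untreated (log2 -1.45, SE 0.16, edgeR adjusted p = 0.000588). It was higher in KAT8-deficient than in WT cells under R848 (log2 0.88, SE 0.16, edgeR adjusted p = 0.00826). The adaptor gene Fyb rose in WT cells by 0.82 (SE 0.091) and was lower in KAT8-deficient cells under R848 by -0.35 (SE 0.09), but Fyb overlaps the model Gm7666 on the same strand and is uncertain. Rap1b, a small GTPase gene, rose in WT cells by 0.31 (SE 0.064). The list's median was 0.07 for R848 in KAT8-deficient cells and 0.11 in WT cells, and -0.12 and -0.08 between genotypes untreated and under R848.

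Of 20 signalling genes below the receptors tested, 1 rose and 1 fell with R848 in KAT8-deficient cells, while 7 rose and 1 fell in WT cells. Lcp2, encoding the adaptor SLP-76, stood at 45.1 and 55.7 CPM in KAT8-deficient cells under R848, against 108 and 99.8 CPM in WT cells under R848 (log2 -1.05, SE 0.098, edgeR adjusted p = 0.000563). Fgr, a Src-family kinase gene, rose in both genotypes, by 0.43 (SE 0.061) in KAT8-deficient and 0.77 (SE 0.061) in WT cells, and Arhgap25, a Rac-inactivating gene, fell by 0.36 (SE 0.059) in KAT8-deficient and by 0.80 (SE 0.06) in WT cells on the log2 scale.

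Under R848, 3 of these signalling genes were higher and 7 lower in KAT8-deficient than in WT cells, and 2 were higher untreated. Coro1a, encoding the actin-binding coronin 1A, was higher by 0.86 untreated (SE 0.076, adjusted p = 0.00164 by edgeR) and by 0.85 under R848 (SE 0.076, adjusted p = 0.000503 by edgeR). Src differed in its R848 response between genotypes, by -1.38 (SE 0.13, edgeR adjusted p = 0.00544). It stood at 47.0 and 50.6 CPM in KAT8-deficient cells under R848 and 66.2 and 68.4 CPM untreated, against 72.2 and 80.4 CPM in WT cells under R848 and 37.7 and 43.0 CPM untreated. Like Vcam1, Src was thus higher in KAT8-deficient cells before R848 (log2 0.74, SE 0.089, edgeR adjusted p = 0.00523). The list's median was 0.01 for R848 in KAT8-deficient and 0.04 in WT cells, and 0 and -0.06 between genotypes untreated and under R848.

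Integrin chains outside the beta 2 group were read in the same way. Of 12 other alpha chains tested, 1 was higher in KAT8-deficient cells untreated and 4 under R848, with medians of 0.37 and 0.33. Itga6, a laminin receptor chain, stood at 139 and 117 CPM in KAT8-deficient cells under R848 and 127 and 162 CPM untreated, against 42.1 and 44.8 CPM in WT cells under R848 and 80.1 and 74.0 CPM untreated. Its genotype difference was 0.90 untreated (SE 0.12, adjusted p = 0.00818 by edgeR) and 1.56 under R848 (SE 0.13, adjusted p = 0.000385 by edgeR), and R848 lowered it in WT cells by 0.83 on the log2 scale. Itga3 (0.43), Itgav (0.40) and Itga2b (0.95) were the others called under R848. Of 6 other beta chains, 3 were higher in KAT8-deficient cells under R848, namely Itgb4, Itgb5 and Itgb8, with a median of 0.16 over the list. Itgb4 was low, at 2.26 and 2.78 CPM in KAT8-deficient cells under R848, against 0.747 and 0.613 CPM in WT cells under R848. Itgb3 and Itgb5 fell with R848 in WT cells, by 0.35 and 0.82. Of the 10 fibroblast and stromal markers, 8 were also higher in KAT8-deficient cells under R848. The part of stromal cells in the values of these chains was not tested.

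Of 10 selectins and other adhesion genes tested, 2 rose and 3 fell with R848 in WT cells, and 4 were higher and 1 lower in KAT8-deficient than in WT cells under R848. Selplg, encoding the selectin ligand PSGL-1, stood at 111 and 107 CPM in KAT8-deficient cells under R848, against 77.6 and 85.8 CPM in WT cells under R848 (log2 0.42, SE 0.066, edgeR adjusted p = 0.00408). Podxl, Esam and Cd34, which endothelial and progenitor cells also express, were higher by 1.18, 1.21 and 0.62, and of the 8 endothelial markers 3 were tested in the same comparison. Vwf and Kdr were called higher, while the endothelial cadherin gene Cdh5, at 0.214 to 1.87 CPM over all libraries, had a log2 difference of -1.04 (edgeR adjusted p = 0.135). Of the 5 sheddase and membrane-linker genes, Adam17, the sheddase that also cuts VCAM-1, stood at 398 and 440.5 CPM in KAT8-deficient cells under R848 and 176 and 182 CPM untreated, against 344 and 537 CPM in WT cells under R848 and 349 and 339 CPM untreated. It was lower in untreated KAT8-deficient cells (log2 -0.94, SE 0.17, edgeR adjusted p = 0.0228) and rose with R848 there (log2 1.23, SE 0.17, edgeR adjusted p = 0.03), while Ezr, encoding ezrin, was higher by 0.31 (SE 0.052) untreated.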

How the data were processed

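Per the labels' protocols, RNA-seq libraries were built from bead-selected mRNA of 8 samples with reagents from Vazyme. The authors deposited a table of values described as expression counts, with Ensembl gene identifiers as rows and libraries as columns. The submitters' processing notes name StringTie 1.3.0, HISAT2, edgeR and mm10, without their roles. The annotation, the handling of reads in overlapping genes and the strand setting were not given, so such reads may have been split between gene models.

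Symbols, positions and exon lengths came from GENCODE M21 (GRCm38, the same build as mm10); 34344 of 34745 identifiers matched. After edgeR's filterByExpr (14040 genes) and TMM scaling, edgeR 4.0.16 (R 4.3.3) fitted all 8 libraries with 1 mean per group by quasi-likelihood. P-values are two-sided and Benjamini-Hochberg adjusted over all genes tested, with a threshold of 0.05. The common biological coefficient of variation was 0.096. Standard errors are the absolute log2 change divided by the square root of F. Library totals of 18550977 to 21384532 limit precision for low genes such as Icam2. Replicates differed by more than counting error (chi-square per degree of freedom 7.83 to 12.7). The pipeline was tested on simulated data.

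Alternatives were DESeq2 size factors, 2 other filters on low counts, DESeq2 1.42.0, limma-voom (limma 3.58.1), robust spread, a replicate block, 4 libraries alone, a fold threshold, other gene lengths and leaving out each library. Summing Itgam with Gm49368 and the shorter NF-kB form were added after the data were seen. All members were named in every comparison; from lists and the chromosome 7 window, up to 4 called genes with the smallest adjusted p were named (1 such gene is not reported here), besides the 3 most alike genes per called member (at least 5 CPM in the highest group, prior count 2). The marker genes Dcn, Vwf, Kdr, Cdh5, Lyz2, Fcgr1, Zbtb46, Batf3, Ccr7, S100a8 and Cxcr2 were named after their values were seen. The members and lists were chosen with earlier results of these data known.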

Additional observations from a re-analysis of the deposited data

Results flagged for a closer look

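The R848 response of Vcam1 differed between genotypes by the test of the difference itself. The log2 difference of the responses, KAT8-deficient minus WT, was -0.91 (SE 0.13, edgeR adjusted p = 0.0446), with responses of 0.70 in KAT8-deficient and 1.62 in WT cells. The call was lost with limma-voom (adjusted p = 0.0545) and in 6 of 8 fits that each left out 1 library (adjusted p from 0.107 to 0.155). It was also lost in the fit with replicate number as a term, whose value is given among the processing alternatives.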

How the results depend on the processing

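The counts of called members for R848 in WT cells (3, or 2 to 3 without single libraries) and for KAT8-deficient versus WT under R848 (3, or 2 to 3) stayed within 1.5 times under every alternative run. For R848 in KAT8-deficient cells the count was 2, against 1 with robust estimation of the spread, 0 with only the 4 libraries compared (where the DESeq2 Wald test and limma-voom on all 8 libraries called 2) and 0 to 2 without single libraries. Between untreated genotypes it was 2, against 1 with limma-voom, 1 with an absolute log2 change of at least 0.5 as well, and 1 to 3 without single libraries. For the interaction it was 1, against 2 with no filter on low counts, 2 by the DESeq2 Wald test, 0 by limma-voom and 0 to 2 without single libraries. Over all genes the calls ran from 2 to 274 (89 as reported) for R848 in KAT8-deficient cells, from 858 to 2069 (1916) for R848 in WT cells, from 66 to 871 (600) between untreated genotypes, from 784 to 2079 (1911) between genotypes under R848 and from 6 to 245 (32) for the interaction. The causes were not tested.

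With the replicate block the interaction count was 0, Vcam1 having an adjusted p of 0.0534. Same-numbered libraries did not deviate together over all genes tested (correlations -0.06 to 0.05 over 6 pairs of groups). Counting error in most genes can hide a shared mouse or culture, so these values cannot exclude pairing. The labels give no pairing, and whether the numbers pair the samples stays unknown.

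With Itgam and Gm49368 summed, the mean alpha chain shares became 48.1% for Itgam and 44.0% for Itgax, and the Itgam log2 values turned to -0.03 for R848 in KAT8-deficient cells and -0.02 between genotypes under R848. No called value changed sign. Without single libraries the log2 ranges that crossed 0, none of them called, were as follows. For R848 in WT cells they were -0.05 to 0.05 for Itgax, -0.03 to 0.04 for Itgb2 and -0.41 to 0.15 for Icam2. For R848 in KAT8-deficient cells they were -0.06 to 0.28 for Itgal, -0.23 to 0.33 for Itgam, -0.11 to 0.15 for Itgax, -0.11 to 0.01 for Itgb2 and -0.08 to 0.32 for Icam2. Between untreated genotypes they were -0.45 to 0.16 for Itgam and -0.04 to 0.01 for Itgb2, and under R848 -0.06 to 1.19 for Itgam and -0.50 to 0.05 for Icam2. For the interaction they were -0.11 to 0.15 for Itgax, -0.12 to 0 for Itgb2 and -0.05 to 0.51 for Icam2. Icam2 rests on 37 to 67 counts per library, and every group on 2 libraries.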
